A study of Homo sapiens with 2 samples.

Results

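The genes described here set, copy and erase DNA methylation. They are the maintenance methyltransferase DNMT1 and its cofactor UHRF1, the UHRF1 paralog UHRF2, the de novo methyltransferases DNMT3A and DNMT3B with their cofactor DNMT3L, the oxidizing enzymes TET1, TET2 and TET3, and the glycosylase TDG. All 10 genes were chosen by name, and each symbol matched 1 Ensembl ID among the 60683 genes of the count table. Their RNA was measured in HEK293T, an established human line of embryonic kidney origin with the SV40 large T antigen, carrying a stable knockdown of FKBP5 made with short hairpin RNAs. The immunophilin that FKBP5 encodes works with HSP90. The 2 samples form 1 group, FKBP5 knockdown, and control cells with a scrambled hairpin were not analysed here. The values below are therefore levels in knockdown cells and differences between the 2 samples, and the change caused by the knockdown was not measured. Neither the hairpin sequences nor the number of clones is given in the labels, and they do not state whether the samples are separate cultures, so the difference between samples may be technical.

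In mammalian cells most DNA methylation lies on the cytosine of CpG dinucleotides. After replication UHRF1 binds CpG sites methylated on a single strand and brings DNMT1 to them, which copies the mark to the new strand, while DNMT3A and DNMT3B methylate sites that carried no mark. TET enzymes oxidize the methyl group stepwise, and TDG cuts out the most oxidized forms, which base excision repair then replaces with plain cytosine. DNMT3L has no catalytic activity and stimulates the de novo enzymes, mainly in germ cells and early embryos.

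FKBP5 itself was counted in both samples, at 41 counts in sample 1 and 77 in sample 2, so its transcript was low but present. Sample 1 held 9997706 counts and sample 2 held 21284648. Levels are the deposited CPM, which are counts scaled to library size but not to gene length, and intervals cover counting error only. All 10 markers listed for the kidney line reached a mean of 1 CPM, against 1 of 6 for blood cells, 1 of 6 for fibroblasts and 2 of 6 for other epithelial lines. The summed level was 758 CPM in sample 1 and 731 in sample 2 for the kidney line markers, against 4.92 and 8.60 CPM for blood cells, 55.5 and 66.5 CPM for fibroblasts, and 12.6 and 13.4 CPM for other epithelial lines. COL1A1 held nearly all of the fibroblast sum, with 54.0 CPM in sample 1 and 65.4 in sample 2, while no listed marker was at 0 in both samples.

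CpG is the site that these enzymes act on, so the starts of 3 of the genes are shown with each CpG in capitals. They are the windows of DNMT1 and UHRF1, the genes with the highest level per length, and of TET2, the lowest of the 9 genes that were well counted. The sequences are the 300 bases around a transcript start in RefSeq (GRCh38.p14). Each is printed from the upstream side on the strand of its gene. The windows are chr19:10194904-10195203 on the minus strand for DNMT1, chr19:4909251-4909550 on the plus strand for UHRF1 and chr4:105145625-105145924 on the plus strand for TET2.
DNMT1: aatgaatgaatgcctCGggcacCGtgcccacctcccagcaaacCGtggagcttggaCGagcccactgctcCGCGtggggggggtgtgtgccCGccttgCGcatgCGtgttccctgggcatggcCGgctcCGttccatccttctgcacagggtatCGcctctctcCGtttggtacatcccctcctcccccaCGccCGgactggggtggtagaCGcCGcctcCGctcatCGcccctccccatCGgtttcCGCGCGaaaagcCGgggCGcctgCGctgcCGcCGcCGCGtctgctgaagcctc
UHRF1: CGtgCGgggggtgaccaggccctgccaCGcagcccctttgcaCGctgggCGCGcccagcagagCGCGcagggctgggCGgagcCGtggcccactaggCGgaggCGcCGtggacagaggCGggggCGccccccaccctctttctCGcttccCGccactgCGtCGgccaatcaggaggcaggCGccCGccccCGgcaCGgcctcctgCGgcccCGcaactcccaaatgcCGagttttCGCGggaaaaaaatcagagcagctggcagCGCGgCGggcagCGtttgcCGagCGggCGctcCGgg
TET2: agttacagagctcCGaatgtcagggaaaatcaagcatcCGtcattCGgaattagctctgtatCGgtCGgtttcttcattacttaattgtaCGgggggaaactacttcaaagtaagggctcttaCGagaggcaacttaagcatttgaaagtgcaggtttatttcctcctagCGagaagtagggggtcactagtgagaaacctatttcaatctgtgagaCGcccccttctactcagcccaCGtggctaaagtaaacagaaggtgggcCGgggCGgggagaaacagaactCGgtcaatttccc
The DNMT1 window held 30 CpG, the UHRF1 window 36 and the TET2 window 13. The median over 35116 windows of all genes was 14. A second TET2 start, at chr4:105146626-105146925, held 35 CpG.

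In all, 20 windows of 9 members were found, and none was listed for DNMT3L. They held between 3 and 46 CpG, and 15 of the 20 lay above the median of all windows. Some windows of DNMT3A, of UHRF1 and of TET1 overlap each other. The same bases thus enter more than once in this count and in the motif counts below. By gene, 7 of the 9 members had a window above this median. The members with no window above it were DNMT3B and TET1. The DNMT3B window held 3 CpG, and 18.2% of all windows held fewer, and it begins 17217 bases inside the gene as GENCODE 29 draws it. The DNMT1 window likewise begins 36083 bases inside its gene and the printed UHRF1 window 6171, so these windows mark a RefSeq start and not the outermost GENCODE one. The 3 TET1 windows held 10, 6 and 11 CpG. The letters TTTCCCGC, an E2F-type site searched on both strands, were found in 1 window, the printed UHRF1 one, and in 1.63% of all windows. The related letters TTTGGCGC were in 0 member windows and in 0.652% of all windows. GGGCGG, the core of an SP1-type site, was in 12 windows of 5 members (DNMT3A, TET2, TET3, UHRF1 and UHRF2) and in 45.0% of all windows. All 3 motifs contain a CpG. Methylation of these sites was not measured in the files analysed here.

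Maintenance genes were the most abundant of the set. DNMT1 (ENSG00000130816, chromosome 19, 10133345 to 10231286 on the minus strand, GRCh38) had 4701 counts or 453 CPM in sample 1, with a 95% exact Poisson interval of 440 to 466 CPM. In sample 2 it had 9631 counts or 441 CPM (432 to 449.6). Its mean was 447 ± 8.76 CPM (SD, n = 2), which exceeded 98.7% of the 15530 genes whose mean reached 1 CPM. The intervals of the 2 samples overlapped. UHRF1 (ENSG00000276043, chromosome 19, 4903080 to 4962154, plus strand), the reader of hemimethylated CpG, had 2651 counts or 256 CPM in sample 1 (246 to 265) and 4957 counts or 227 CPM in sample 2 (221 to 233). Its mean was 241 ± 20.3 CPM, and its intervals did not overlap. UHRF2 (ENSG00000147854, chromosome 9, 6413151 to 6507054, plus strand) has the same domain layout as UHRF1 and binds 5-hydroxymethylcytosine, but it does not replace UHRF1 in maintenance. It had 462 counts or 44.5 CPM in sample 1 and 1037 counts or 47.5 CPM in sample 2, a mean of 46.0 ± 2.07 CPM.

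The de novo enzymes lay below DNMT1, and their cofactor was near the limit of detection. DNMT3B (ENSG00000088305, chromosome 20, 32762385 to 32809356, plus strand), which methylates pericentromeric repeats, had 855 counts or 82.4 CPM in sample 1 and 1819 counts or 83.2 CPM in sample 2. Its mean of 82.8 ± 0.586 CPM had the smallest SD for its size among the 9 well-counted members, 0.707% of the mean. With 2 samples an SD holds 1 difference, so it does not measure stability. This difference lay well inside the counting intervals, 77.0 to 88.1 CPM in sample 1 and 79.5 to 87.1 in sample 2. DNMT3A (ENSG00000119772, chromosome 2, 25227855 to 25342590, minus strand), the main de novo enzyme of many differentiated tissues, had 473 counts or 45.6 CPM in sample 1 and 1140 counts or 52.2 CPM in sample 2. The mean was 48.9 ± 4.65 CPM, and this SD of 9.51% of the mean was the largest of the 9. DNMT3L (ENSG00000142182, chromosome 21, 44246339 to 44262216, minus strand) had no count in sample 1, where the floor of 3 counts is 0.289 CPM, and 3 counts or 0.137 CPM in sample 2. It was the only member under 1 CPM. Of the 50-base stretches in its transcripts, 75.6% occur in no other gene's, and the rest are shared with FP565260.4, a gene model also on chromosome 21 that had no count in either sample. Whether reads common to both were dropped was not tested.

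All 3 TET genes were counted, TET2 at the lowest level. TET3 (ENSG00000187605, chromosome 2, 73986404 to 74108176, plus strand), known for oxidizing the paternal genome in the mouse zygote, had 427 counts or 41.2 CPM in sample 1 and 996 counts or 45.6 CPM in sample 2. TET1 (ENSG00000138336, chromosome 10, 68560656 to 68694482, plus strand), which binds unmethylated CpG through a CXXC domain, had 363 counts or 35.0 CPM in sample 1 and 852 counts or 39.0 CPM in sample 2. TET2 (ENSG00000168769, chromosome 4, 105145875 to 105279816, plus strand), which lost its own CXXC domain and is often mutated in blood cancers, had 180 counts or 17.3 CPM in sample 1 and 357 counts or 16.3 CPM in sample 2. The means were 43.4 ± 3.13 CPM for TET3, 37.0 ± 2.83 CPM for TET1 and 16.8 ± 0.716 CPM for TET2. TDG (ENSG00000139372, chromosome 12, 103965804 to 103988874, plus strand), the glycosylase downstream of the TET enzymes, had 811 counts or 78.2 CPM in sample 1 and 1574 counts or 72.0 CPM in sample 2, a mean of 75.1 ± 4.34 CPM.

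**Figure D1:**
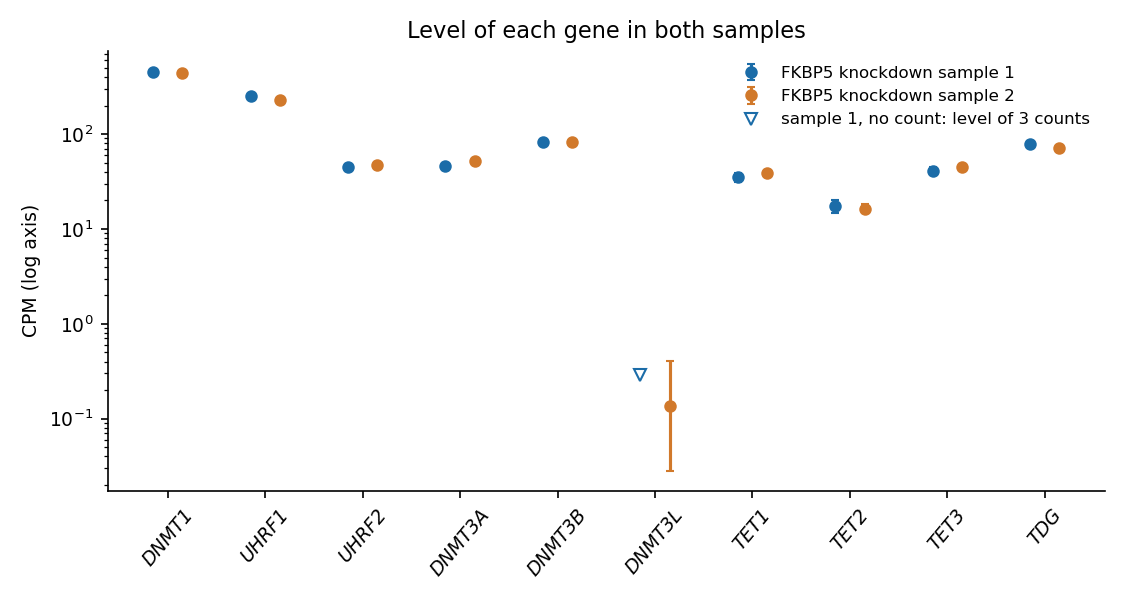
CPM of each gene (log axis) in FKBP5 knockdown sample 1 and sample 2, with 95% exact Poisson intervals. The open triangle marks the level of 3 counts, 0.289 CPM, for DNMT3L in sample 1, where it had no count. DNMT1 is at 453 and 441 CPM, TET2 at 17.3 and 16.3 CPM, and DNMT3L stands apart from the other 9 genes.

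Long genes collect more counts per molecule, so levels of different genes were compared per kb of exonic bases in GENCODE 29. UHRF1 had 46.9 ± 3.94 CPM per kb and DNMT1 45.6 ± 0.894 CPM per kb, followed by DNMT3B at 17.9 ± 0.126 and TDG at 15.3 ± 0.886 CPM per kb. UHRF2 had 4.64 ± 0.208 CPM per kb, DNMT3A 4.07 ± 0.387, TET1 3.98 ± 0.304 and TET3 3.53 ± 0.255 CPM per kb. TET2 had 1.02 ± 0.0435 CPM per kb. DNMT3L had none in sample 1 and 0.0738 CPM per kb in sample 2. Thus 4 genes had means above 15 CPM per kb, and UHRF2, DNMT3A, TET1 and TET3 lay close together near 4 CPM per kb. The median of the 10 genes was 4.35 CPM per kb, beside 4.75 CPM per kb over the 15436 of those 15530 genes with an annotated length.

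Neighbours in this order were compared by the ratio of their levels per kb within each sample, with 95% exact binomial intervals. UHRF1 and DNMT1 could not be ordered, since UHRF1 had 1.07 times the DNMT1 level in sample 1 (1.02 to 1.13) and 0.980 times in sample 2 (0.947 to 1.01). Per exonic base DNMT3A and TET1 could not be ordered either, at 1.01 (0.876 to 1.16) in sample 1 and 1.03 (0.945 to 1.13) in sample 2. For TET1 over TET3 the ratio was 1.12 in sample 1, with an interval that held 1 (0.974 to 1.29), and 1.13 in sample 2 (1.03 to 1.24). The other 6 neighbouring pairs had intervals above 1 in both samples. TET3 had 3.18 times the TET2 level in sample 1 (2.67 to 3.81) and 3.75 times in sample 2 (3.32 to 4.24). DNMT3B had 1.12 times the TDG level in sample 1 (1.01 to 1.23) and 1.22 times in sample 2 (1.14 to 1.31).

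Part of this order depends on the length used. GENCODE 29 gives DNMT1 9796 exonic bases but a longest coding transcript of 5408, and UHRF2 9919 against 3452. Per kb of the longest coding transcript DNMT1 came first, at 82.6 ± 1.62 CPM per kb, with 1.41 times the UHRF1 level in sample 1 (1.35 to 1.48) and 1.55 times in sample 2 (1.496 to 1.60). TDG then lay above DNMT3B, at 23.1 ± 1.34 against 19.1 ± 0.135 CPM per kb, and UHRF2 was at 13.3 ± 0.599 CPM per kb. Per kb of coding length TET3 had 8.05 ± 0.580 and TET1 5.77 ± 0.441 CPM per kb, the reverse of their order per exonic base, and TET1 over TET3 was 0.714 in sample 1 (0.619 to 0.824) and 0.719 in sample 2 (0.655 to 0.789). With all 3 lengths DNMT1 and UHRF1 were the top pair, TET2 was below TET1 and TET3, and DNMT3L was last. Which transcripts the cells made was not measured.

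**Figure D2:**
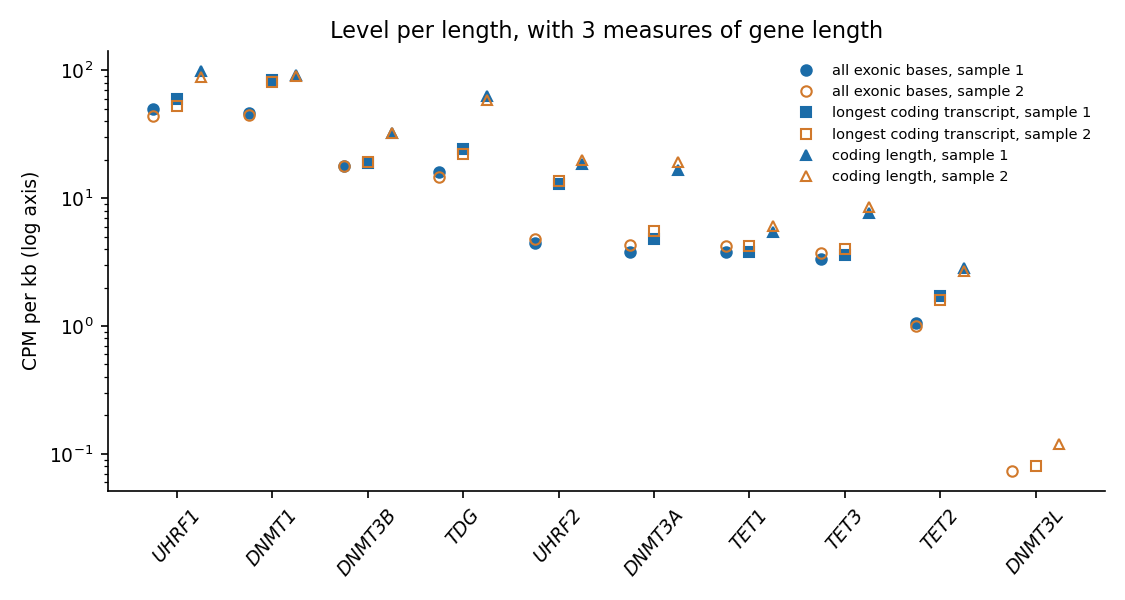
CPM per kb (log axis) of each gene in sample 1 (filled) and sample 2 (open), with length taken as all exonic bases (circles), the longest coding transcript (squares) or the coding length (triangles). DNMT3L has no point for sample 1, where it had no count. The 2 samples lie close together, and the measure of length moves UHRF2, DNMT3A and TDG far more than the sample does.

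By role, the maintenance enzyme exceeded the de novo enzymes, and these exceeded the oxidizing enzymes. DNMT1 had 46.3 CPM per kb of exonic bases in sample 1 and 45.0 in sample 2, against a sum of 21.6 and 22.3 CPM per kb for DNMT3A and DNMT3B. The sum of TET1, TET2 and TET3 was 8.17 CPM per kb in sample 1 and 8.90 in sample 2. The samples therefore lay far closer together than the classes did. DNMT1 had 2.08 ± 0.0894 times the level of the de novo enzymes and 5.36 ± 0.428 times that of the TET genes (SD, n = 2). The TET genes had 0.389 ± 0.0144 times the level of the de novo enzymes. Per kb of the longest coding transcript, DNMT1 had 3.41 ± 0.155 times the level of the de novo enzymes and 8.76 ± 0.643 times that of the TET genes, while per kb of coding length these ratios were 1.82 ± 0.105 and 5.51 ± 0.408. The order of the 3 classes was the same with each length and in each sample.

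Within the de novo pair, DNMT3B carried most of the sum, 82.4% in sample 1 and 80.6% in sample 2 per exonic base, and 65.9% and 63.0% per coding base. DNMT3B over DNMT3A was 4.69 in sample 1 (95% exact binomial interval 4.19 to 5.26) and 4.14 in sample 2 (3.84 to 4.46) per exonic base. Within the TET genes, TET1 held 46.1% in sample 1 and 47.1% in sample 2, TET3 41.0% and 41.7%, and TET2 12.9% and 11.1% per exonic base. Per coding base TET3 led with 47.9% and 49.1%, and TET2 held 17.9% and 15.6%. UHRF1 had 11.1 times the level of its paralog UHRF2 in sample 1 (10.02 to 12.2) and 9.22 times in sample 2 (8.62 to 9.86) per exonic base. Per kb of the longest coding transcript this was 4.60 (4.16 to 5.09) and 3.83 (3.58 to 4.10).

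**Figure D3:**
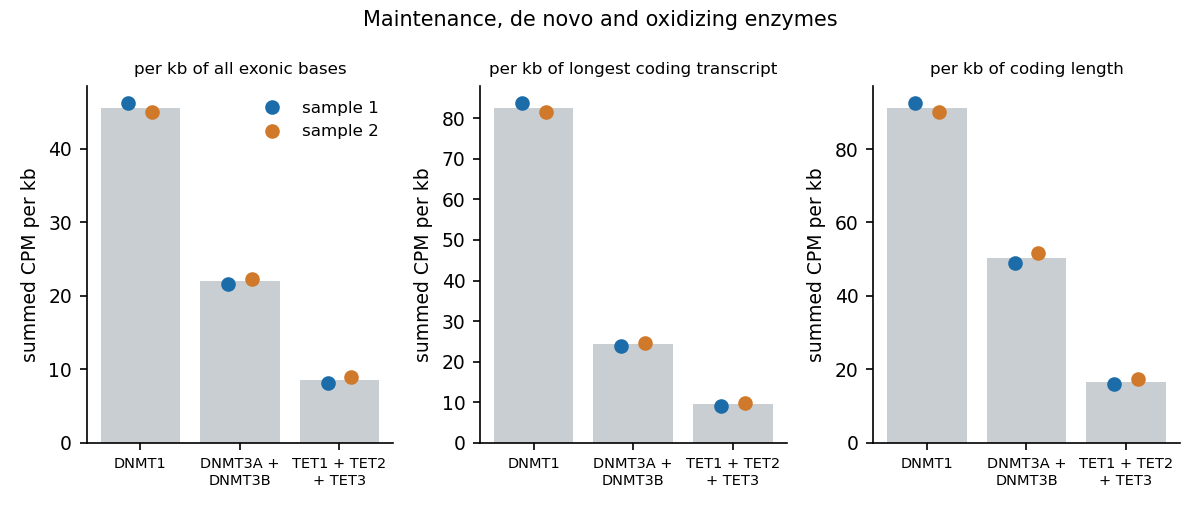
Summed CPM per kb of the maintenance enzyme (DNMT1), the de novo enzymes (DNMT3A and DNMT3B) and the oxidizing enzymes (TET1, TET2 and TET3), in 3 panels for the 3 measures of length. Bars are means of the 2 samples and points the samples. The order of the classes is the same in every panel, and the lead of DNMT1 is widest per kb of the longest coding transcript.

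The 2 knockdown samples had similar levels of these genes. Ratios are sample 1 over sample 2, and each gene was tested by a 2-sided exact binomial test of its counts with Benjamini-Hochberg adjustment over 15530 genes. The test compares libraries and holds counting error only. UHRF1 alone of the 9 members tested passed it, with sample 1 at 1.13 times sample 2 (1.07 to 1.18, log2 ratio 0.17, exact adjusted p = 5.7e-05). Among all genes tested 8.97% passed, 708 (4.56%) higher in sample 1 and 685 (4.41%) lower, so 1 of 9 is near the background. With DESeq2 size factors the split over all genes was 551 higher and 857 lower, and with column totals it was 908 higher and 589 lower. The log2 ratios of genes at 100 CPM and above had a median of 0.02 and an SD of 0.11, beside 0.17 for UHRF1. The share of these genes that lay as far out was not counted, so UHRF1 is not set apart by this. Of the 50-base stretches in UHRF1 transcripts 78.9% occur in no other gene's, and a processed pseudogene on chromosome 12, AC112777.1, shares 20.7%. That pseudogene had 41 counts in sample 1 and 106 in sample 2. Its part in the difference was not tested.

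The other 8 did not pass. DNMT3A had the lowest ratio, 0.874 (0.783 to 0.974, log2 ratio -0.19, exact adjusted p = 0.105). TET1 was at 0.897 (0.791 to 1.02, exact adjusted p = 0.315) and TET3 at 0.903 (0.804 to 1.01, exact adjusted p = 0.300). UHRF2 was at 0.938 (0.839 to 1.05), DNMT3B at 0.990 (0.912 to 1.07), DNMT1 at 1.03 (0.993 to 1.06), TET2 at 1.06 (0.883 to 1.27) and TDG at 1.09 (0.996 to 1.18). With counting error alone and the deposited CPM, the intervals reach a DNMT1 difference of 6.47% of the sample 2 level. They reach 27.4% for the thinly counted TET2. Spread between libraries beyond counting error is not in these intervals. The median log2 ratio over the 9 genes was -0.01, as it was over all genes tested. The direction for DNMT3B turned with library sizes set to the column totals, at a log2 ratio of 0.000995. Over genes of 10 to 100 CPM the SD of the log2 ratio was 0.164. Of those 7 members DNMT3A, at -0.194, lay beyond it, and TET1 at -0.156 and TET3 at -0.147 lay just inside. The share of all genes beyond this SD was not counted, so DNMT3A is not set apart by it.

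**Figure D4:**
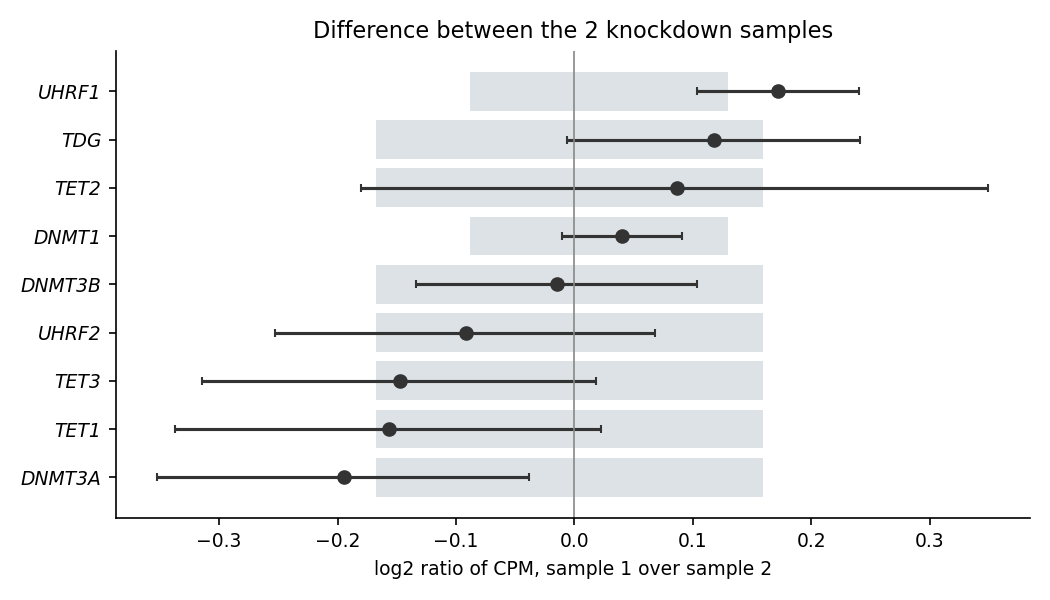
Log2 ratio of CPM, sample 1 over sample 2, for the 9 members tested. Points carry 95% exact binomial intervals. Grey bars show the median ± SD of the log2 ratio over all genes of the same range of CPM, from 10 to 100 CPM or from 100 CPM upward. The interval of UHRF1 lies above 0 and that of DNMT3A below 0, and the other 7 intervals hold 0.

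Genes that work with these enzymes were mostly well counted, with 69 of 73 genes in 5 lists at 1 CPM or above. With the germline and imprinted genes added, 77 of 106 genes in 7 lists had at least 1 CPM, and 10 of the 77 (13.0%) differed between the samples by the binomial test, beside 8.97% of all genes tested. Among 22 genes that recruit or regulate methyltransferases, 20 had at least 1 CPM, with TRIM28, the corepressor of KRAB zinc finger proteins, at 1099 ± 38.0 CPM, the replication clamp PCNA at 276 ± 11.6 CPM and the deacetylase HDAC2 at 242 ± 9.58 CPM. The remodeler HELLS and its activator CDCA7, named after their values were seen, had 96.8 ± 2.85 and 124 ± 1.35 CPM. The exceptions were DPPA3, an inhibitor of UHRF1 in mouse oocytes, with 1 count in sample 1 and 2 in sample 2, and the imprint protector ZFP57, with 1 and 1. TRIM28 passed the test in this list, at 1126 CPM in sample 1 and 1072 in sample 2.

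All 8 methyl-CpG readers and all 8 CXXC readers of unmethylated CpG had at least 1 CPM. Of these 16, 0 passed the test, beside 8.97% of all genes tested. Of the methyl-CpG readers, MBD3 had 194 ± 8.18 CPM and ZBTB4 105 ± 7.76 CPM. Despite its name, mammalian MBD3 binds methylated CpG poorly. Of the CXXC readers, FBXL19 had 276 ± 10.6 CPM and the histone methyltransferases KMT2B and KMT2A 200.4 ± 8.16 and 110.0 ± 5.30 CPM. In base excision repair, downstream of TDG, 16 of 17 genes had at least 1 CPM. PARP1, a sensor of strand breaks, led with 746 ± 31.9 CPM, followed by the AP endonuclease APEX1 at 188 ± 18.2 CPM. Of these 16 repair genes PARP1, APEX1 and the uracil glycosylase SMUG1 passed the test, all higher in sample 1. Among all genes tested 4.56% passed in that direction.

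Cofactor supply and TET partners had 17 of 18 genes at 1 CPM or above. OGT, the sugar transferase that binds TET2 and TET3, had 344 ± 30.8 CPM. AHCY, which removes the product that inhibits methyltransferases, had 279 ± 14.3 CPM, and MAT2A, which makes the methyl donor, 229 ± 12.7 CPM. Of the 17 genes 5 passed, beside 8.97% of all genes tested, and no list was tested as a set. AHCY and MAT2A were higher in sample 1, and OGT, IDH2 and AHCYL2 were lower in it. IDH2, a source of the 2-oxoglutarate that TET enzymes consume, had 105 CPM in sample 1 and 129 in sample 2. The liver gene MAT1A had 3 counts in sample 1 and 10 in sample 2. No gene in the 7 lists that passed differed by 1.5-fold or more.

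Germline genes known to be silenced by promoter methylation were near the floor. All 14 were under 1 CPM, none had more than 16 counts in a sample, and none reached the minimum for the test. The highest were the RNA helicase MOV10L1 at 0.752 ± 0.0275 CPM, the transcription factor SOHLH2 at 0.632 ± 0.0764 CPM and the synaptonemal complex gene SYCP3 at 0.495 ± 0.118 CPM. For SOHLH2, another gene on that strand covers 43.2% of the exonic bases. Imprinted genes ranged widely, with 8 of 19 at 1 CPM or above and NDN and NAP1L5 without a count in either sample. GNAS, which encodes a G protein alpha subunit, had 1352 ± 5.20 CPM, GRB10 92.8 ± 3.01 CPM and PLAGL1 53.2 ± 2.43 CPM. CDKN1C passed the test, at 9.73 CPM in sample 1 and 13.5 in sample 2. Of SNRPN, with no count in sample 1 and 2 in sample 2, 33.6% of exonic bases overlap another same-strand gene, and of IGF2, with 11 and 14 counts, 73.7% do. Whether reads were lost there was not tested, so these 2 levels may be too low.

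**Figure D5:**
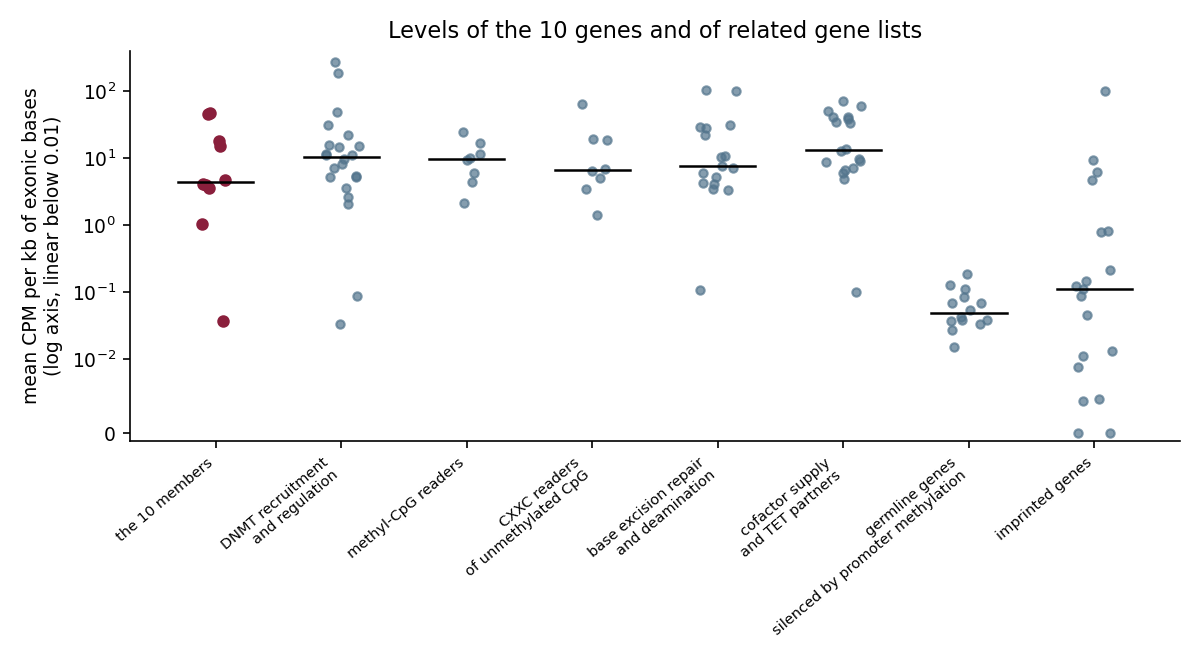
Mean CPM per kb of exonic bases (log axis, linear below 0.01) of the 10 members and of the genes in 7 related lists, with a line at each median. Horizontal placement within a list is arbitrary. The medians are 4.35 CPM per kb for the 10 members, 0.0484 for the germline genes and 0.112 for the imprinted genes, and between 6.61 and 13.3 for the other 5 lists.

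Sequence shared with other genes touched few of the members. All 50-base stretches of DNMT3B, TET1, TET2 and TET3 were found in no other gene's transcripts, and of the other members apart from UHRF1 and DNMT3L at least 93.3% were. The lowest of these was TDG, whose pseudogene TDGP1 had 2 counts in sample 1 and 3 in sample 2. The exons of DNMT1 overlap those of S1PR2 on the same strand over 0.847% of their bases, and S1PR2 had 246 counts in sample 1 and 563 in sample 2. On the opposite strand, exons of another gene covered 13.0% of the DNMT3L exonic bases and 0 of those of the other 9 genes. The antisense gene TET2-AS1 had 1 count in each sample.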

How the data were processed

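RNA was measured in FKBP5 knockdown HEK293T cells, and both samples were assigned to 1 group by their titles. TRIzol total RNA and a directional NEBNext protocol are named in the labels. The authors deposited 1 table of whole-number counts per Ensembl gene, with no normalization, and 1 file of CPM per sample. Per the submitters' processing notes, STAR 2.7.7a, edgeR and GRCh38 were used. How reads were assigned to genes (program, strand, shared reads, annotation) was not given in the sources used here. Dividing counts by the deposited CPM gave a library size larger than the column total by 3.78% for sample 1 and by 2.68% for sample 2. Gene symbols came from a table of gene IDs (99.5% of IDs matched), and lengths, coordinates and overlaps from GENCODE 29 (96.4% of IDs), which is not the authors' annotation. Promoter windows came from RefSeq, GRCh38.p14.

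Intervals are 95% exact Poisson for a level and exact binomial (Clopper-Pearson) for a ratio. The floor is 3 counts, which is 0.289 CPM in sample 1 and 0.137 in sample 2. Genes whose mean reached 1 CPM were tested between the libraries at an adjusted p under 0.05. With 1 library on each side and no controls analysed, edgeR's test was not run. The exact test was checked on simulated counts. Tools were Python 3.11.15 (scipy 1.17.1, pandas 2.3.3, statsmodels 0.14.6) and, for scaling, edgeR 4.0.16 and DESeq2 1.42.0 in R 4.3.3.

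The members and the 7 lists were chosen with earlier results of these data known. Named genes are FKBP5, the 10 members, and of each list the 3 genes highest by mean CPM and those that passed the test with a ratio of at least 1.5. Some genes that the rule selects are not reported here. Other list genes named were singled out after their values were seen. Alternatives were other scalings, filters, lengths, classes with cofactors, a pseudocount of 1, and leaving out each sample.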

Additional observations from a re-analysis of the deposited data

How the results depend on the processing

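UHRF1 was the 1 member that passed the binomial test under each of 4 other settings (column totals, DESeq2 scaling, no filter on low counts, and a minimum of 5 CPM), with an adjusted p between 7.42e-06 and 0.00038. TMM scaling gave the same calls and log2 ratios as the deposited CPM, whose library sizes stand in the same ratio. Of the pathway genes 6 passed with no filter, 13 with column totals and 11 at a minimum of 5 CPM, against 10. The log2 ratio of DNMT3B turned to 0.000995 with column totals, against -0.01. DNMT1 over the de novo enzymes was 3.41 per kb of the longest coding transcript, 1.82 per kb of coding length and 4.21 with UHRF1 and DNMT3L added, against 2.08. DNMT1 over the TET genes was 8.76 per kb of the longest coding transcript and 10.9 with UHRF1 added, against 5.36. The TET genes over the de novo enzymes came to 0.330 per kb of coding length, against 0.389. These ratios moved because the lengths or genes entering them differ. With 2 samples, leaving one out gives the value of the other, so this shows nothing about stability. Of all genes, 972 of 41325 tested passed with no filter and 1479 of 11888 at a minimum of 5 CPM. With column totals 1497 of 15530 passed and with DESeq2 scaling 1408 of 15530, against 1393 of 15530. These counts were within 1.5 times of 1393, but the share that passed, the background for the 1 member, changed with the filter. No paired analysis was possible because both samples belong to 1 group. The depth, lowest in sample 1, limits DNMT3L, which cannot be told from 0 there, and leaves TET2 the widest interval of the tested members.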
